A study of Mus musculus with 6 samples.

Results

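The genes described are those of the mouse proteasome: the subunits of its core and cap, its activators and the chaperones that assemble it. They were taken from the deposited table by symbol, as Psma, Psmb, Psmc, Psmd, Psme, Psmf or Psmg followed by a digit. Of 55 matching rows, 5 named as pseudogenes (-ps) and the immunoproteasome subunits Psmb8 and Psmb9 were left out, and none of the rest was at 0 in every library. This left 48 of the 55367 rows of the table, of which 26402 hold values other than 0. By role they are 8 alpha ring and 9 beta ring genes of the core, 6 ATPases and 11 non-ATPases of the cap, 6 activator genes counted together with the inhibitor Psmf1, and 7 assembly chaperones. One further gene, Psmc3ip, matches by symbol only and acts in meiotic recombination.

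The proteasome degrades proteins in the cytosol and nucleus, most of them tagged with ubiquitin. Its core is a barrel of stacked rings, in which alpha subunits form the gate and beta subunits, some of them catalytic, line the chamber. The 19S cap binds ubiquitin chains, removes them and unfolds the substrate with a ring of ATPases, whereas the 11S and Psme4 activators open the gate without ATP, and dedicated chaperones build each subcomplex. Malignant blood cells are known to depend on this machinery, and proteasome inhibitors are used against some blood cancers.

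RNA was sequenced from leukemia stem cells (LSCs) sorted from the bone marrow of mice with acute myeloid leukemia driven by MLL-AF9, with 3 WT libraries (WT-1 to WT-3) and 3 Piezo1cko libraries (KO-1 to KO-3). Piezo1cko donors were Mx1-cre; Piezo1 fl/fl mice and WT donors were Piezo1 fl/fl littermates without the Cre, and both had received pIpC, a double-stranded RNA that switches on the Mx1 promoter through interferon. The labels give the AML mice as 8 to 10 weeks old. In both groups lineage-negative marrow cells carried the same MLL-AF9-IRES-YFP retrovirus and had been transplanted into irradiated recipients, and the sources used here do not state from which transplantation round the RNA came. Mx1-cre acts in any interferon-responsive cell of the donor, not in leukemia cells alone. The labels do not say that the libraries of a group came from separate mice, so the p-values below measure only the spread between these libraries.

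The deposited values are log2 values, scaled for library size and drawn towards each gene's mean, the form of a regularized log. Undoing that transform gave reads, from 14112123 to 15483613 per library, and from these a level per transcript length (TPM, scaled to the same total in every library). Piezo1 itself, the targeted gene, differed by -0.29 on the log2 scale (adjusted p = 5.8e-06, limma), and 45.9% of the WT normalized reads remained. Markers of the LSC state (Kit, Cd34, Hoxa9, Meis1 and Mpo) were present in every library, and Ly6g and Cd3e had at most 1 read in any library. Of the 7 progenitor markers 3 rose and 2 fell, where 63.0% of all genes tested differed at an adjusted p under 0.05 (limma). Markers of other cells differed as well: the 6 neutrophil markers summed to 417 to 431 TPM in WT and 41.6 to 45.5 TPM in Piezo1cko libraries, with 5 of 5 tested lower and Ly6g near 0. The 5 B cell markers summed to 1107 to 1133 TPM in WT and 2007 to 2056 TPM in Piezo1cko libraries, nearly all of it Cd79b and Ighm, with 3 of 3 tested higher and Ms4a1 and Pax5 near 0. The 7 macrophage and dendritic cell markers summed to 52.3 to 55.1 and 95.1 to 101 TPM (5 of 6 higher, among them Flt3, while Adgre1 was not called), the 6 erythroid markers to 10.5 to 12.5 and 3.95 to 5.3 TPM (1 of 4 lower), and the 5 T cell markers to 0.925 to 1.89 and 2.07 to 2.79 TPM (1 of 2 higher, 1 lower). The part of these differences in the values below was not tested, and in sorted bulk cells fewer cells of a type cannot be told apart from less RNA per cell.

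Promoter sequences are shown for Psme3 and for some of the called genes of core and cap whose promoters held a motif, chosen after their values were seen, because the members are known to share regulators. RefSeq promoters (GRCm38.p6, 250 bases before to 50 after the start) were at hand for 40 of the 48 members. The 3 motifs searched on both strands were TGACNNNGC, the core of the antioxidant response element bound by NRF1 and NRF2, TGATGNAA, an element bound by ATF4 with C/EBP, and CCAAT, bound by NF-Y. TGACNNNGC was found in 6 of the 40 members (15%), against 14.0% of all 27025 promoters and 17.0% of those of tested genes. TGATGNAA was found in 1 (2.5%, against 4.5% and 2.8%), and CCAAT in 14 (35.0%, against 41.1% and 43.0%). The shares were not tested. Within the core, 5 of 7 alpha ring promoters held CCAAT, against 2 of 6 beta ring promoters, and no alpha ring promoter held TGACNNNGC. The stretches below run 5′ to 3′ along the strand of the gene, with the motif in capitals (ATTGG and GCTAAGTCA are the motif read from the opposite strand):
Psma6, chr12:55384183-55384207, plus strand: ccactaggtgCCAATggaattcctg
Psma6, chr12:55384076-55384100, plus strand: gcagaccattATTGGggatcaagct
Psma1, chr7:114276200-114276224, minus strand: gagcttcctgCCAATcccacgttct
Psma1, chr7:114276228-114276252, minus strand: ttctctgcgcATTGGctttcccacc
Psmc6, chr14:45329587-45329615, plus strand: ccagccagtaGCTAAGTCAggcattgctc
Psmc1, chr12:100110017-100110041, plus strand: acatgtttaaCCAATccttgtacca
Psmd14, chr2:61711525-61711549, plus strand: gtgaagcaggATTGGcactgtgaaa
Psme3, whole upstream stretch, chr11:101315963-101316212, plus strand: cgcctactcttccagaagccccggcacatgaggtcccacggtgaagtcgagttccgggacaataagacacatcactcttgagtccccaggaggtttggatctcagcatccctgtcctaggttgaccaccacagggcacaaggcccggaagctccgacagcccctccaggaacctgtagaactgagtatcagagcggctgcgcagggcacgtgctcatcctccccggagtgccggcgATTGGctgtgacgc
CCAAT was found both in promoters of genes that rose (Psma6, Psma1, Psmc1) and in promoters of genes that fell (Psmd14, Psme3).

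Of the 48 members, 47 had a mean of at least 1 on the deposited scale and were tested. The remaining gene, Psmb11, had 1, 1 and 0 reads in the WT libraries and none in the Piezo1cko libraries. In Piezo1cko LSCs 10 members rose and 22 fell at an adjusted p under 0.05 (limma), and 15 were not called. Among all 16746 genes tested 63.0% were called, 31.6% as higher and 31.4% as lower, so the share of members called (68.1%) was near the background. By direction, 21.3% of the tested members rose and 46.8% fell. That split depended on the scaling between libraries, since with the median of every library set equal 14 rose and 17 fell. The shifts were small: the median log2 fold change of the members was -0.04, against 0.00 for all genes, the median size of the change was 0.11 against 0.09, and 44 of the 47 moved by less than 0.25. These values are on the shrunken deposited scale, and on recovered reads (TMM) the median of the members was -0.08, against -0.01 for all genes. On the deposited values no member passed the study's thresholds for a differentially expressed gene (a change of more than 1 on the log2 scale besides the adjusted p), which 0.818% of all tested genes did. That scale is shrunken, and on recovered reads (TMM) 24.9% of 17352 genes passed, Psme3 being the 1 member among them. In 35 of the 47 the groups did not overlap, against 66.6% of all genes tested. Most members are well-expressed genes, and of the 3300 genes averaging 10 or more on the deposited scale 71.9% were called, 35.5% as higher and 36.4% as lower, and 1.06% passed the study's thresholds. On recovered reads 9 members rose and 22 fell, where 63.2% of all genes were called, 30.8% as higher and 32.4% as lower.

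**Figure D1:**
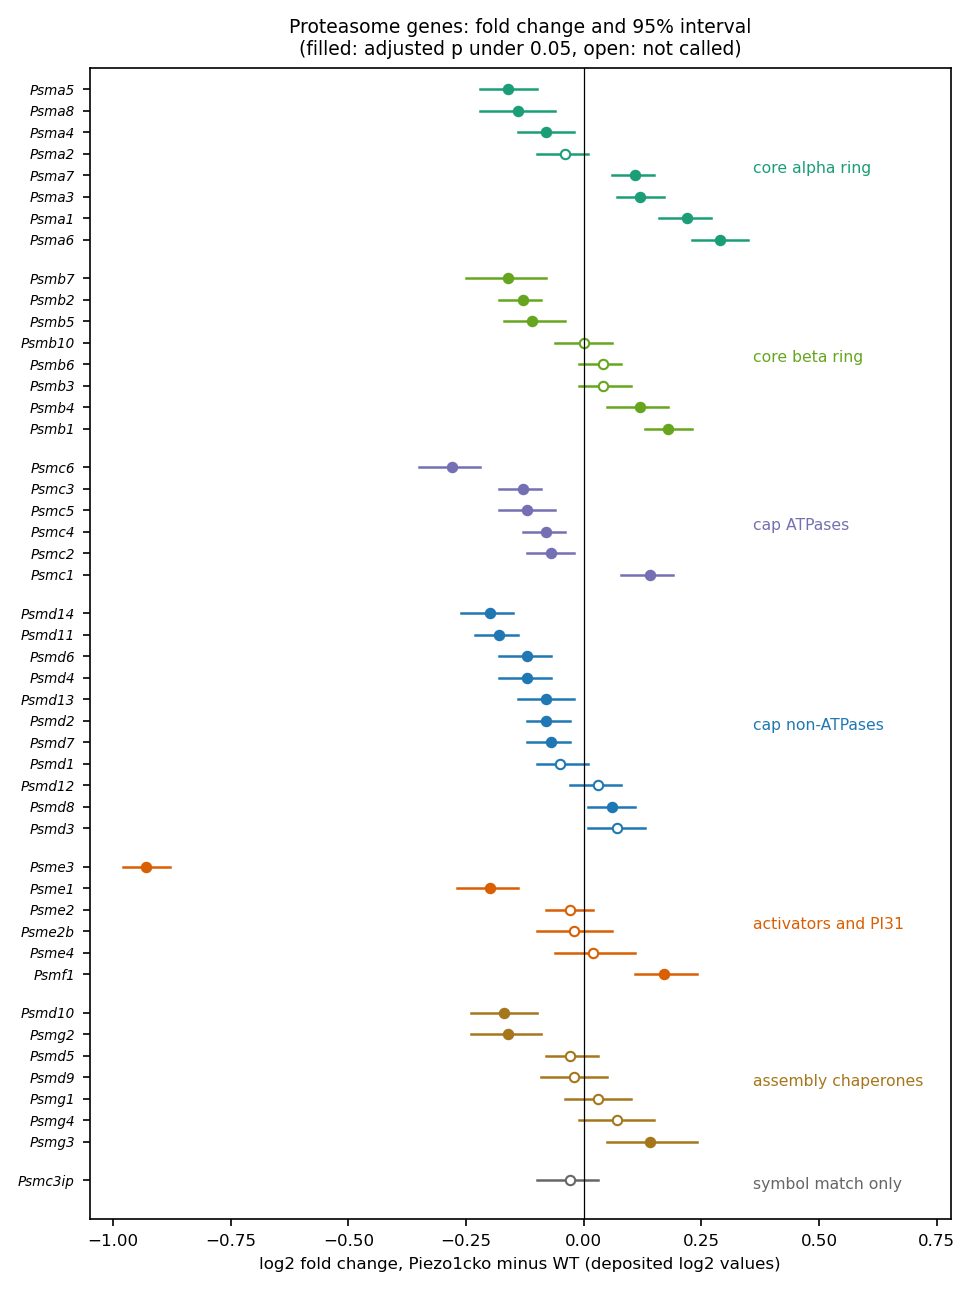
Log2 fold change (x axis, Piezo1cko minus WT, deposited log2 values) of the 47 tested genes, one gene per line on the y axis and grouped by role, with lines for the 95% interval, filled points for an adjusted p under 0.05 and open points for genes not called. Psme3 stands apart at -0.93, 12 of 17 cap genes lie below 0 with a call, and the core genes spread from -0.16 to 0.29.

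The alpha ring held the largest rises. Of its 8 genes 4 rose and 3 fell (87.5% called, against 63.0% of all genes tested). Psma6 had deposited values of 11.02, 11.01 and 10.99 in WT-1 to WT-3 and 11.34, 11.25 and 11.29 in KO-1 to KO-3. Every Piezo1cko library lay above every WT library. The change was 0.29 on the log2 scale (standard error 0.03, adjusted p = 9.12e-08, limma), and normalized reads reached 133% of WT. Psma1, another constitutive alpha subunit, had 11.61, 11.62 and 11.63 in WT and 11.89, 11.80 and 11.82 in Piezo1cko LSCs, again without overlap (log2 fold change 0.22, standard error 0.03, adjusted p = 1.47e-06, 124% of the WT reads). Psma3 (0.12) and Psma7 (0.11), named here after their values were seen, were the other alpha ring genes that rose, and 14.3% of the Psma3 75-base stretches also occur in pseudogenes.

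Among the falls in the alpha ring, Psma5 went from 11.01, 11.02 and 10.96 in WT to 10.85, 10.84 and 10.82 in Piezo1cko LSCs. The change of -0.16 (standard error 0.03, adjusted p = 0.000102, limma) came from groups that did not overlap. Its level is uncertain, because 35.2% of its 75-base stretches are shared with the pseudogenes Gm8394 and Gm12989, and how such reads were counted is not given in the sources used here. Psma8, the alpha subunit of the testis, was measured at 255, 266 and 279 reads in WT and 208, 218 and 203 in Piezo1cko LSCs. It fell by 0.14 on the log2 scale (standard error 0.04, adjusted p = 0.00261, limma), to 81.1% of the WT reads.

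The beta ring moved less evenly, with 2 genes higher, 3 lower and 3 not called of 8 tested. The share called was 62.5%, against 63.0% of all genes tested. Psmb1, a structural subunit, was at 12.11, 12.11 and 12.07 in WT and 12.27, 12.26 and 12.29 in Piezo1cko LSCs. It rose by 0.18 (standard error 0.02, adjusted p = 3.25e-06, limma), to 118% of the WT reads. Psmb4, likewise not catalytic, rose by 0.12 (standard error 0.03, adjusted p = 0.00269, limma), from 10.13 in each WT library to 10.21, 10.27 and 10.27. Both genes had groups that did not overlap.

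Of the 3 catalytic subunits of the constitutive core, 2 fell and 1 was not called, where 63.0% of all genes tested were called. Psmb7, which carries the trypsin-like site, was at 8.00, 7.88 and 7.94 in WT and 7.77, 7.74 and 7.82 in Piezo1cko LSCs. This fall of 0.16 (log2 fold change -0.16, standard error 0.04, adjusted p = 0.00187, limma) was measured at 193 to 293 reads per library, and 11.8% of its exonic bases overlap Nek6 on the opposite strand. Psmb5, with the chymotrypsin-like site, fell as well (log2 fold change -0.11, 88.9% of the WT reads), while sharing 36.8% of its 75-base stretches with Gm3375 and Mir686. Psmb6, with the caspase-like site, had 13.16, 13.22 and 13.19 in WT and 13.21, 13.26 and 13.22 in Piezo1cko LSCs. Its groups overlapped and it was not called (log2 fold change 0.04, 95% interval -0.01 to 0.08), though it was called as higher with the median of every library set equal. Psmb5 and Psmb6 are named for their role and were chosen after their values were seen.

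Psmb2, a structural beta subunit, fell by 0.13 on the log2 scale (standard error 0.02, adjusted p = 6.45e-05, limma), from 12.23, 12.23 and 12.21 to 12.07, 12.08 and 12.11. Psmb10, the interferon-induced subunit that replaces Psmb7 in the immunoproteasome, was at 10.86, 10.88 and 10.87 in WT and 10.83, 10.88 and 10.89 in Piezo1cko LSCs. It did not pass the test (log2 fold change -0.00, 95% interval -0.06 to 0.06, adjusted p = 0.934, limma). Its partners Psmb8 and Psmb9, which lie outside the rule, both rose, by 0.29 (adjusted p = 4.56e-09) and 0.31 (adjusted p = 3.93e-07, limma), to a summed level of 133.6% of WT. Whether the change of Psmb10 differs from those of Psmb8 and Psmb9 was not tested as a contrast of its own. Of 11 tested genes of a list of interferon response genes, 5 rose and 2 fell (63.6% called, against 63.0% of all genes tested), Tap1 by 0.52 and Irf7 by 0.49 upwards and Gbp2 by 0.24 downwards.

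In the cap, 2 of 17 genes rose, 12 fell (70.6%, against 31.4% of all genes tested) and 3 were not called. No test was made of the difference between cap and core. The median log2 fold change was -0.08 in the cap and 0.02 in the core (-0.12 and 0.01 on recovered reads with TMM). In 16 of the 17 cap genes the groups did not overlap, against 66.6% of all genes tested. With the median of every library set equal 3 cap genes rose and 8 fell, and in the core the 6 rises and 6 falls became 8 and 5. Of the 6 ATPases 5 fell and 1 rose, and of the 11 non-ATPases 7 fell and 1 rose.

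Psmc6, an ATPase of the unfolding ring, had the largest change of the cap. It was at 10.85, 10.77 and 10.77 in WT-1 to WT-3 and at 10.53, 10.50 and 10.52 in KO-1 to KO-3. The 3 Piezo1cko values lay close together and below every WT value. The log2 fold change was -0.28 (standard error 0.03, adjusted p = 2.8e-07, limma), with 75.3% of the WT reads left. Psmc3, a second ATPase, fell by 0.13 (standard error 0.02, adjusted p = 4.98e-05, limma), from 12.33, 12.34 and 12.35 to 12.22, 12.21 and 12.19. In contrast Psmc1, which sits in the same ring, rose by 0.14 (standard error 0.03, adjusted p = 0.000157, limma), from 11.99, 11.92 and 11.97 to 12.10, 12.07 and 12.11.

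Psmd14 encodes the deubiquitinase that cuts ubiquitin chains off substrates at the cap. It had 11.92, 11.88 and 11.92 in WT and 11.73, 11.72 and 11.67 in Piezo1cko LSCs, without overlap. It fell by 0.20 on the log2 scale (standard error 0.03, adjusted p = 2.71e-06, limma), to 82.3% of the WT reads. Psmd11, a scaffold subunit of the lid, fell by 0.18 (standard error 0.02, adjusted p = 1.12e-06, limma), from 12.73, 12.70 and 12.68 to 12.53, 12.52 and 12.52. Psmd8, another lid subunit, was the only non-ATPase called as higher, by 0.06 (standard error 0.02, adjusted p = 0.0411, limma). That call was lost without WT replicate 1 or 3, without Piezo1cko replicate 2 or 3, without a filter on low values, and on recovered reads with TMM factors (adjusted p = 0.0736), so that 1 cap gene was then higher, but not on recovered reads scaled to library totals.

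**Figure D2:**
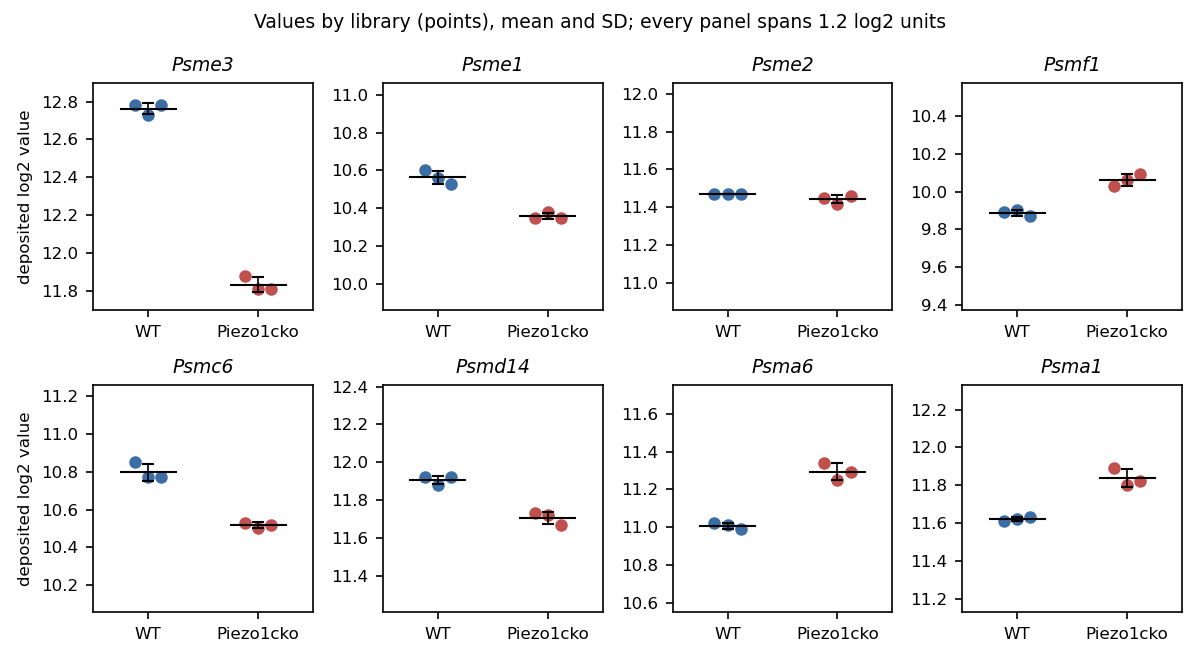
Deposited log2 values (y axis) of 8 genes in the 3 WT and 3 Piezo1cko libraries (x axis), with points for libraries, a bar for the mean and whiskers for the SD, every panel spanning the same range. No panel shows overlapping groups, and those of Psme2 nearly touch (11.47 in each WT library against 11.45, 11.42 and 11.46).

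The activators held the largest change of all members, in Psme3, the subunit of the nuclear 11S activator that drives degradation without ubiquitin. Psme3 (ENSMUSG00000078652.9, chromosome 11 of GRCm38, 101316213 to 101323537, plus strand) was at 12.78, 12.73 and 12.78 in WT-1 to WT-3 and at 11.88, 11.81 and 11.81 in KO-1 to KO-3. All Piezo1cko values lay far below all WT values, and the spread within each group was small (SD of 8.12 to 10.8 TPM). In recovered reads it had 8132, 7520 and 8228 in WT and 3217, 3213 and 3071 in Piezo1cko LSCs, or 41.1% of WT after normalization. The log2 fold change was -0.93 (standard error 0.03, 95% interval -0.98 to -0.88, adjusted p = 5.51e-16, limma). On recovered reads it was -1.30 (standard error 0.04, adjusted p = 7.33e-14, limma-voom). None of its 75-base stretches is shared with another gene.

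Psme1 and Psme2 encode the alternating subunits of the cytosolic 11S activator, which interferon induces. They lie 5911 bases apart on chromosome 14, on opposite strands. Psme1 fell from 10.60, 10.56 and 10.53 to 10.35, 10.38 and 10.35 (log2 fold change -0.20, standard error 0.03, adjusted p = 1.28e-05, limma), to 81.1% of the WT reads. For Psme2 the change was -0.03 (95% interval -0.08 to 0.02, adjusted p = 0.332, limma), and no change was called. Psme2 and its single-exon copy Psme2b cannot be fully separated, as Psme2 shares 22.9% of its 75-base stretches with Psme2b and Psme2b 60.2% with Psme2. Psme2b had 39 to 58 reads per library and was not called (log2 fold change -0.02, 95% interval -0.10 to 0.06).

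Psme4, the large single-chain activator that caps the core in the nucleus and in sperm cells, had 199, 209 and 234 reads in WT and 212, 208 and 224 in Piezo1cko LSCs. Its groups overlapped and it was not called (log2 fold change 0.02, 95% interval -0.06 to 0.11). Psmf1, which binds the core and inhibits it in vitro, was at 9.89, 9.90 and 9.87 in WT and 10.03, 10.06 and 10.09 in Piezo1cko LSCs. It was the only gene of this group that rose (log2 fold change 0.17, standard error 0.03, adjusted p = 0.000122, limma), to 120% of the WT reads. In all, 1 of these 6 genes rose, 2 fell and 3 were not called, where 63.0% of all genes tested were called. The median log2 fold change of these 6 genes was -0.02.

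Of the 7 assembly chaperones 1 rose, 2 fell and 4 were not called, with a median log2 fold change of -0.02. The share called was 42.9%, against 63.0% of all genes tested. Psmd10 (gankyrin), which helps to assemble the ATPase ring, was at 10.14, 10.09 and 10.08 in WT and 9.97, 9.94 and 9.89 in Piezo1cko LSCs. It fell by 0.17 (standard error 0.03, adjusted p = 0.000257, limma), to 84.0% of the WT reads. The other chaperones of that ring, Psmd5 (-0.03, 95% interval -0.08 to 0.03) and Psmd9 (-0.02, 95% interval -0.09 to 0.05), were not called, and 25.5% of the exonic bases of Psmd9 overlap the antisense gene Gm26745.

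Psmg2, which pairs with Psmg1 to build the alpha ring, was at 9.59, 9.54 and 9.59 in WT and 9.44, 9.35 and 9.44 in Piezo1cko LSCs. It fell by 0.16 (standard error 0.04, adjusted p = 0.000642, limma), to 83.7% of the WT reads. Its partner Psmg1 was not called (log2 fold change 0.03, 95% interval -0.04 to 0.10). Psmg3, of the second alpha ring chaperone pair, was called as higher (log2 fold change 0.14, standard error 0.05, adjusted p = 0.0102, limma), although WT-2 and KO-1 were both at 7.66. It had 165 to 251 reads per library, and its call was lost without WT replicate 1, WT replicate 3 or Piezo1cko replicate 2, leaving 0 chaperones higher. Its partner Psmg4 was not called (0.07, 95% interval -0.01 to 0.15). Psmc3ip, the gene that matches by symbol only, was not called either (-0.03, 95% interval -0.10 to 0.03), and 21.2% of its exonic bases overlap Mlx on the opposite strand.

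The same differences were then set side by side as summed levels per length. All members together had 16288 ± 94.8 TPM (SD, n = 3) in WT and 16101 ± 84.8 TPM in Piezo1cko LSCs, or 98.8% of WT. Without Psme3 the sum was 100.4% of WT, so the total hardly moved while its components did. The alpha ring went from 4609 ± 104 to 5070 ± 55.0 TPM (110.0%), and to 108.9% when its most abundant gene, Psma7, was left out. Of the 7 genes then left 3 rose and 3 fell, with a median log2 fold change of -0.04, so the summed rise was not shared by the whole ring. The beta ring went from 4252 ± 52.9 to 4316 ± 75.9 TPM (101.5%), a difference about as large as the spread between libraries.

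The cap ATPases reached 93.8% and the non-ATPases 92.5% of WT, and the whole cap went from 5618 ± 13.2 to 5224 ± 27.5 TPM (93.0%). Every Piezo1cko library was below every WT library in this sum. The activators with Psmf1 went from 1115 ± 13.9 to 820 ± 13.7 TPM (73.6%). Psme3 carried most of this drop, since the other 5 genes reached 93.7% of WT. The assembly chaperones went from 596 ± 3.03 to 575 ± 5.97 TPM (96.6%). These sums are descriptions and were not tested.

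**Figure D3:**
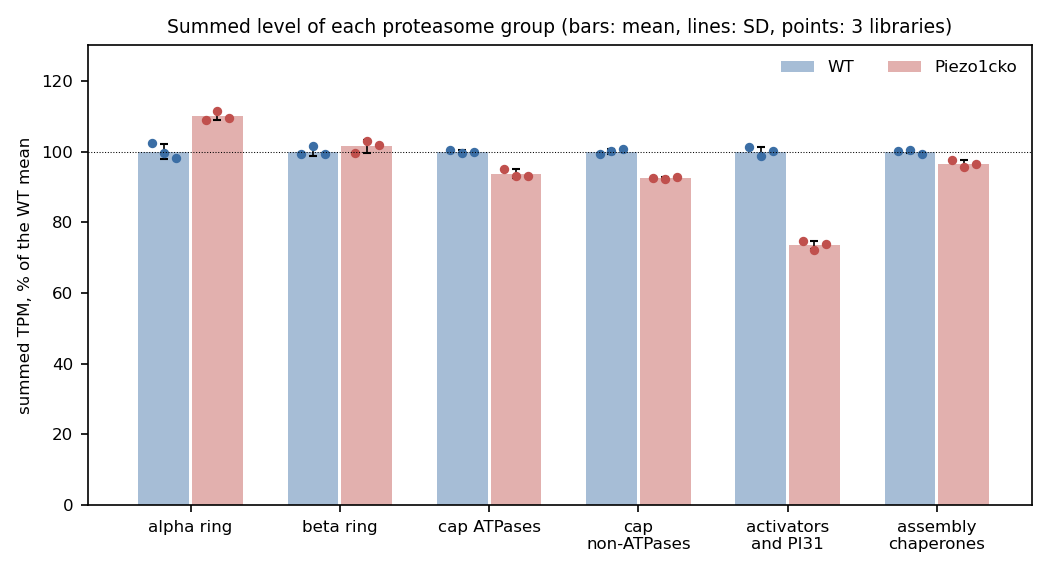
Summed TPM of each group of proteasome genes as a percentage of its WT mean (y axis, from 0) in WT and Piezo1cko libraries, with bars for the mean, lines for the SD and points for the 3 libraries. The activators drop to 73.6%, both cap groups lie at 92.5% and 93.8%, and the alpha ring lies at 110.0%.

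Levels per length differed far more between genes than between groups. Psma7 was the most abundant member, at 2959 TPM in WT and 3274 TPM in Piezo1cko LSCs, followed by Psmb6 at 1707 and 1770 TPM (both named after their values were seen). Psmb7 was the lowest gene of the constitutive core, at 33.0 TPM in WT and 25.9 TPM in Piezo1cko LSCs. The assembled constitutive core holds its subunits in equal numbers, and in the immunoproteasome Psmb10 takes the place of Psmb7. Psmb10 was at 209 TPM in both groups, and whether its level bears on that of Psmb7 was not tested. Across the 14 genes of the constitutive core the coefficient of variation of TPM was 128.8% to 136.5% in the 6 libraries, with no separation of the groups (130.8% to 136.5% in Piezo1cko and 128.8% to 131.7% in WT). TPM rests on 1 principal transcript per gene (GENCODE M21), so the order of genes depends on that choice of length and on how reads shared with pseudogenes were counted. The lowest members that were tested were Psme4, at 4.72 and 4.90 TPM, and Psme2b, at 9.02 and 8.52 TPM.

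**Figure D4:**
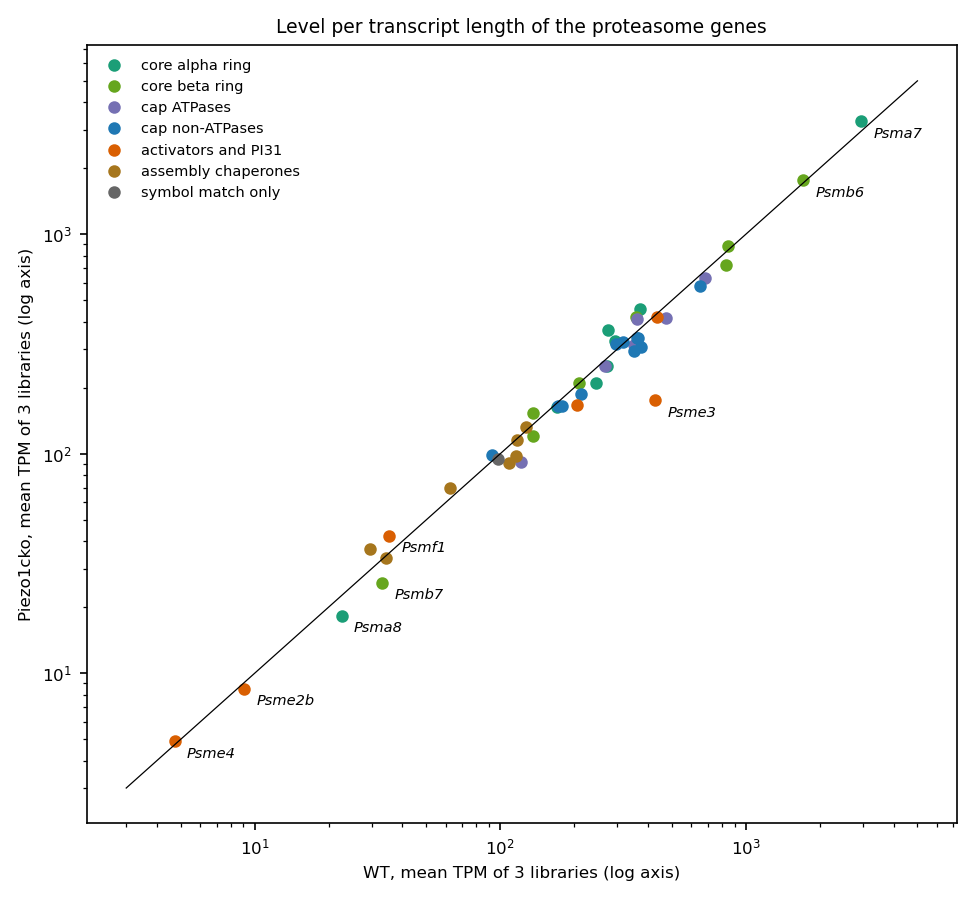
Mean TPM of 47 members in WT (x axis, log scale) and Piezo1cko (y axis, log scale) LSCs, coloured by role, with a line of equal level. Most points lie close to the line over the whole range, and Psme3 lies well below it (428 against 176 TPM).

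Genes that work with the proteasome but carry other symbols were taken from lists written for comparison. Of 12 partners that bind or assemble it, 2 rose and 5 fell. Txnl1, a redox protein of the cap, fell by 0.25 (adjusted p = 1.27e-06), Zfand2a fell by 0.14 (adjusted p = 0.00735) and Sem1, a small lid subunit, rose by 0.18 (adjusted p = 2.69e-05, limma). Of 6 genes for ubiquitin and its activating enzymes, 1 rose (Uba6, by 0.23) and 2 fell (Uba1 by 0.13 and Ubb by 0.11). In these lists 7 of 12 and 3 of 6 genes were called, against 63.0% of all genes tested.

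Larger changes lay among 12 genes of ubiquitin shuttles, the VCP segregase and the NRF1 axis, of which 3 rose and 7 fell (83.3% called, against 63.0% of all genes tested), with a median log2 fold change of -0.16. Nfe2l1, which encodes NRF1, the factor known to raise proteasome genes when proteasome activity falls short, had 10.88, 10.92 and 10.95 in WT and 10.10, 10.16 and 10.17 in Piezo1cko LSCs. It fell by 0.77 (standard error 0.03, adjusted p = 2.09e-13, limma), to 45.8% of the WT reads. Nfe2l2, which encodes NRF2, went from 10.18, 10.16 and 10.16 to 9.61, 9.60 and 9.63, and so differed by -0.56 (standard error 0.03, adjusted p = 2.13e-11, limma). Ubqln2, a shuttle that carries ubiquitinated proteins to the cap, fell by 0.48 (standard error 0.04, adjusted p = 1.83e-08, limma). Of the 6 members with TGACNNNGC in the promoter, Psmc6 and Psmb5 fell while Psmd9, Psme4, Psmb6 and Psmd12 were not called. Among all genes tested 63.0% were called, 31.4% as lower. The part of Nfe2l1 and Nfe2l2 in the members' values was not tested.

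By position, the members are spread over the genome, with 10 on chromosome 11, 6 each on chromosomes 2 and 14, and fewer on the others. Chromosome 11 holds Psme3, Psmd11 and Psmc5, which fell, beside Psmb6, Psmb3, Psmd3, Psmd12, Psme4, Psme2b and Psmc3ip, which were not called. Among all genes tested 63.0% were called, 31.4% as lower, and no link between position and change was tested. Members outside the rule for named genes are given here for their position only.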

How the data were processed

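LSC RNA was made into libraries by a Smart-seq2 based protocol and sequenced in pairs. The authors trimmed reads with fastp (0.20.1), mapped them to GRCm38 with HISAT2 (2.2.1), counted them with featureCounts (2.0.1) and normalized them with DESeq2 (1.28.1). The authors deposited log2 values, of the form of a regularized log, though the sources used here do not name the transform. Handling of strand and multiply mapped reads is not given in the sources used here.

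Genes with a mean of at least 1 (16746) were fitted with limma (3.58.1, R 4.3.3; lmFit, eBayes with trend, no covariate), with Benjamini-Hochberg adjustment over all of them. A count model had been planned in case of counts. Reads were recovered by undoing the transform. In the 18331 genes averaging 1 read or more, 92.7% of values fell no further than 0.1 from a whole number. With the shrinkage set off by 10% this share was 22.2%. For the 47 tested members the share was 77.7%, so some member reads may be inexact, and this check does not measure by how much. The recovered reads were fitted with limma-voom and TMM factors (17352 genes with at least 10 reads in total). Such reads carry no molecular identifiers, and this fit takes its error from the spread between these libraries. TPM used the principal transcript of GENCODE M21. Replicates differed beyond sampling noise (chi-square per gene 1.53 to 2.66). Both fits and the recovery were also run on simulated data. For the recovery these were made with the same transform, so that run cannot show that the deposited values have this form.

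Members and lists were chosen with earlier results of these data known. Named genes were all activators, chaperones and Psmc3ip, in core and cap the 4 largest rises and falls among the calls, any member past the study's thresholds, Psma8, Psmb10, Psmb11, Piezo1, and at most 3 called members of each comparison list. Other scalings, filters, a replicate block and each library left out were tried. Tools were Python (3.11.15), numpy (2.4.6), scipy (1.17.1), pandas (2.3.3) and matplotlib (3.10.9).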

Additional observations from a re-analysis of the deposited data

How the results depend on the processing

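No named gene and no group reversed its direction while called. Across the settings tried, apart from the study's fold change threshold, 27 to 32 of the 32 calls were kept, 0 to 5 were lost, 0 to 4 were gained and 0 turned to the opposite direction. With each library left out in turn, the members called higher ranged from 8 to 12 and those called lower from 19 to 21, the cap genes called higher from 1 to 3, and the chaperones called higher from 0 to 1. Without a filter on low values, and on recovered reads with TMM factors, 1 cap gene was higher. With median centring, quantile normalization or no variance trend, 2 chaperones were higher (Psmg4 being the gene gained). On the deposited values with the study's fold change threshold added, 0 members were called in either direction in the core, the cap, the activators and the chaperones (1, Psme3, on recovered reads with TMM). With median centring the median of all genes was 0.023, against 0.001.

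In alternatives added after seeing the data, the summed level of the activators was 67.1% of WT with exonic length and 64.3% in reads without a length, and that of the beta ring 99.3% with exonic length. Same-numbered WT and Piezo1cko libraries had correlations of 0.20, 0.16 and 0.07 in their deviations from the group means, so the numbers were not taken as pairs, although each library correlated best with its own number. A fit with a replicate block kept all 32 calls and gained 4 (Psmd1, Psmb6, Psmb3 and Psmd3). Depth limits Psmb11 and Psme2b most, and the shrinkage makes changes smaller in well-expressed genes too (Psme3 -0.93 deposited against -1.30 on recovered reads).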
